A study of Homo sapiens with 2 samples.

Results

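The 8 genes described here encode transcription factors of glial development: the nuclear factor I family (NFIA, NFIB, NFIC and NFIX) together with SOX9, ZBTB20, ATF3 and RUNX2. They were chosen by symbol, and all 8 of 8 were found among the 36601 genes of the deposited tables. Astrocyte progenitor cells had been made from the human embryonic stem cell line H7 and profiled by single-cell RNA-seq at day 220 (1 library) and at day 160 (1 library). Both groups carried the same unedited line and had received LIF, BMP4 and FGF1, so no untreated culture was compared. For each library 3 separate differentiations were dissociated with Accutase and pooled before loading on the 10x Genomics Chromium 3′ v3.1 platform. No label separates the pooled cultures, so each day was 1 sample without a replicate, and no p-value could be computed. The day 220 protocol text repeats the earlier day, and the stored names of the libraries differ in a prefix that no label explains, so time cannot be told apart from any other difference between the cultures.

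Nuclear factor I proteins bind DNA as dimers at a palindrome built from the motif TTGGC. In mouse and chick spinal cord, SOX9 induces NFIA when neural progenitors begin to make glia, and the pair then acts together on glial genes. Work on astrocytes derived from mouse stem cells has placed ATF3 and RUNX2 beside NFIA as factors of successive stages, and in mouse cortex ZBTB20, a zinc finger repressor, promotes the making of astrocytes. ATF3 is otherwise known as an early stress-response gene, RUNX2 as the factor that commits cells to bone, and SOX9 as the factor that commits cells to cartilage.

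After filters the day 220 library held 518 cells with a median of 46079.5 UMIs, where a UMI counts 1 captured transcript, and the day 160 library held 9389 cells with a median of 10041 UMIs. The summed depth was 25487554 UMIs at day 220 and 115158004 UMIs at day 160, and 3 cell barcodes occurred in both libraries. Levels are given as counts per 1000000 UMIs (CPM), summed over the kept cells, with 95% exact intervals that cover counting error only and say nothing of the spread between cultures. Fewer cells of a type and less RNA per cell cannot be told apart in such sums. Of the defining astrocyte markers, S100B stood at 570 CPM at day 220 and 172 CPM at day 160, and GFAP at 135 CPM at day 220 and 551 CPM at day 160. AQP4 at 2.12 and ALDH1L1 at 0.31 CPM were low at day 220, against 5.08 and 2.14 CPM at day 160. Of 11 counted astrocyte markers 4 were at least 2-fold higher at day 220, beside 23.0% of all genes counted, and 2 were lower, beside 5.09%. Among the higher ones was APOE with 197 CPM at day 220 and 25.2 CPM at day 160. Markers of dividing cells were lower at day 220: 13 of 14 cycling markers were at least 2-fold lower there, beside 5.09% of genes counted. The summed level of the 14 was 479.9 CPM at day 220 and 1939 CPM at day 160. The part of cycling cells in the differences between the days was not tested, and values within classes are given after the clusters.

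Day 220 and day 160 differed most in RUNX2 and ZBTB20, which were higher at day 220, and in NFIA, which was lower. Once set against genes of like intron length, ZBTB20 was not higher, and NFIA, NFIB and NFIC were at least 2-fold lower. RUNX2 was then higher by less than 2-fold over all cells, and not higher within any of the cell classes compared below. A gene was counted as higher or lower at a 2-fold difference of (CPM + 1), among genes with at least 10 CPM in 1 of the libraries. By that rule 2 of the 8 genes were higher, beside 23.0% of the 10167 genes counted, and 1 of the 8 was lower, beside 5.09% of genes counted. The median log2 ratio of day 220 over day 160 was 0.18 over the 8 genes and 0.14 over all genes counted. On this scale the set lay close to the background. Once each gene was set against genes of like intron length, as described after the single genes, the median was -0.74 over the 8 genes and 0.0079 over all genes.

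**Figure D1:**
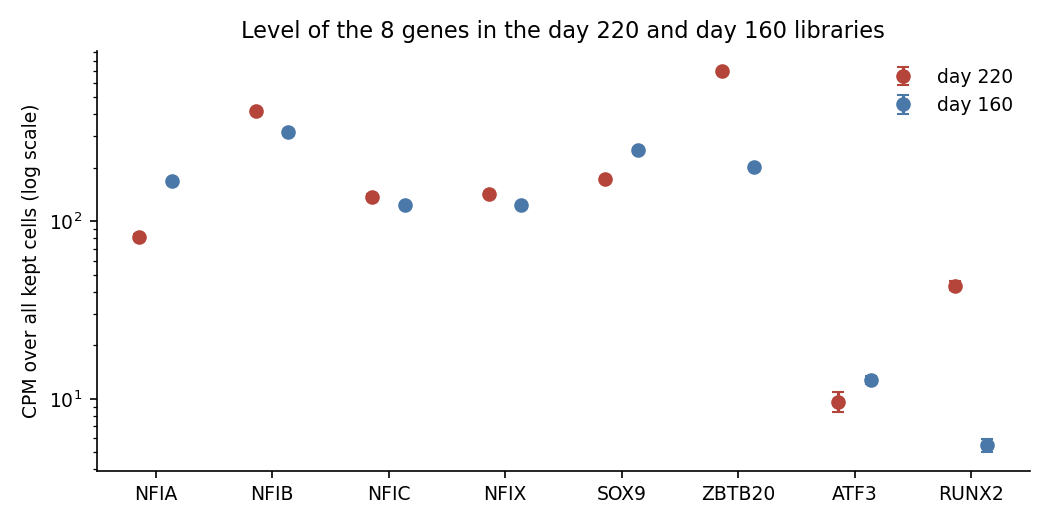
Level of each of the 8 genes in CPM (log axis) in the day 220 library (red, left of each pair) and the day 160 library (blue, right), with 95% exact Poisson intervals that cover counting error only and are mostly smaller than the points. RUNX2 and ZBTB20 stand higher at day 220, NFIA stands lower, and the pairs of NFIB, NFIC, NFIX and ATF3 lie close together. Relative to genes of like intron length, ZBTB20 is not higher, RUNX2 is higher by less than 2-fold, and NFIB and NFIC are at least 2-fold lower.

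For the genes past the 2-fold limit, the 250 bases before the most upstream start in the RefSeq promoter table (build GRCh38.p14) are shown with NFI motifs (TTGGC), RUNX motifs (TGTGGT) and cAMP response elements (TGACGTCA) in capitals, on either strand. They let the motifs bound by NFI, RUNX and ATF proteins be read before a listed start of the genes that differed most. For NFIA the listed start lies inside the annotated span given below, which begins at 60865259. Each window is printed in the direction of its gene. The windows are chr6:45328080-45328329 (plus strand) for RUNX2, chr3:115147289-115147538 (minus strand) for ZBTB20 and chr1:61076977-61077226 (plus strand) for NFIA.
RUNX2: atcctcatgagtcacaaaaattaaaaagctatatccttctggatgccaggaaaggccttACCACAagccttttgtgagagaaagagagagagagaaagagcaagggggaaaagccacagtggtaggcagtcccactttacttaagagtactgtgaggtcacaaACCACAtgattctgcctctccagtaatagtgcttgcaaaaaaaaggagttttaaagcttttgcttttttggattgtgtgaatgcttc
ZBTB20: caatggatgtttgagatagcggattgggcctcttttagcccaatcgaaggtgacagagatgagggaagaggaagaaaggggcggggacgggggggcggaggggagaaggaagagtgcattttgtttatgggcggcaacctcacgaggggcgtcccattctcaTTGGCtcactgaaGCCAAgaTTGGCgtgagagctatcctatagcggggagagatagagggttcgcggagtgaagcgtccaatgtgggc
NFIA: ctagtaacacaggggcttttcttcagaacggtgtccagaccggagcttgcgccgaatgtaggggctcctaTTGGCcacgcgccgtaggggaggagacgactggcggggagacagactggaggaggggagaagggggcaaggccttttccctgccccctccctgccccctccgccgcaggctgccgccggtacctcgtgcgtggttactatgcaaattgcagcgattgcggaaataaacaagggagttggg
The RUNX2 window held 2 RUNX motifs, a motif found in 11.0% of the 35116 windows of this length in the table. The ZBTB20 window held 3 NFI motifs and the NFIA window held 1, where 40.8% of windows held at least 1. None of the 3 windows held the cAMP response element, found in 1.65% of windows. Table entries existed for 7 of the 8 genes, SOX9 being the exception, and 6 of 10 windows of NFIB and 2 of 5 of NFIX held an NFI motif. Of all windows of the 3 genes shown, 1 of 2 for RUNX2 held a RUNX motif, and 4 of 8 for ZBTB20 and 1 of 3 for NFIA held an NFI motif. These matches describe letters, and binding was not measured.

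NFIA, the family member tied to the onset of gliogenesis, spans 60865259 to 61462793 on the plus strand of chromosome 1 (GRCh38), of which 586663 bases are intronic. Its level was 81.4 CPM at day 220 (77.9 to 85.0) and 169 CPM at day 160 (167 to 172), which was 2.08-fold lower at day 220 (1.99 to 2.18). The intervals of the libraries lay far apart, and the difference kept its direction under all 8 alternatives tried. The difference was also seen in the share of cells. At a common depth of 5000 UMIs per cell, 18.2% of 488 day 220 cells (14.9 to 22.0) and 46.6% of 8699 day 160 cells (45.6 to 47.7) had an NFIA UMI. Without thinning the shares were 43.8% at day 220 and 63.1% at day 160, although day 220 cells were sequenced more deeply. The level of the median cell was 0 CPM at day 220, where 291 of 518 cells had no NFIA UMI, and 111 CPM at day 160.

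The NFIA UMIs of day 220 sat in few cells. The 26 cells with the most NFIA UMIs, 5% of the day 220 library, held 49.2% of its NFIA UMIs, while the top 5% of day 160 cells held 25.1%. At 5000 UMIs per cell these shares were 58.9% at day 220 and 26.5% at day 160. The highest thinned cell had 30 NFIA UMIs at day 220 and 9 at day 160, in spite of the lower mean at day 220. Over all kept cells, shallower ones included, the highest cell stood at 4027 CPM at day 220 and 4937 CPM at day 160. Ranked instead by CPM, the 26 richest day 220 cells came from 5 of the 7 clusters, with 11 in cluster 2 (led by PEG10 and NRXN3), 6 in cluster 1 (SPARCL1, EDNRB), 5 in cluster 7 (GLCCI1, with GADD45G and DLX2), 3 in cluster 3 (OLIG1) and 1 in the cycling cluster. NFIB, NFIC, NFIX, SOX9 and ZBTB20 showed no gap of that size at equal depth. For NFIB the top 5% of thinned cells held 20.9% of its UMIs at day 220 and 17.3% at day 160, and for ZBTB20 17.1% at day 220 and 20.1% at day 160.

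**Figure D2:**
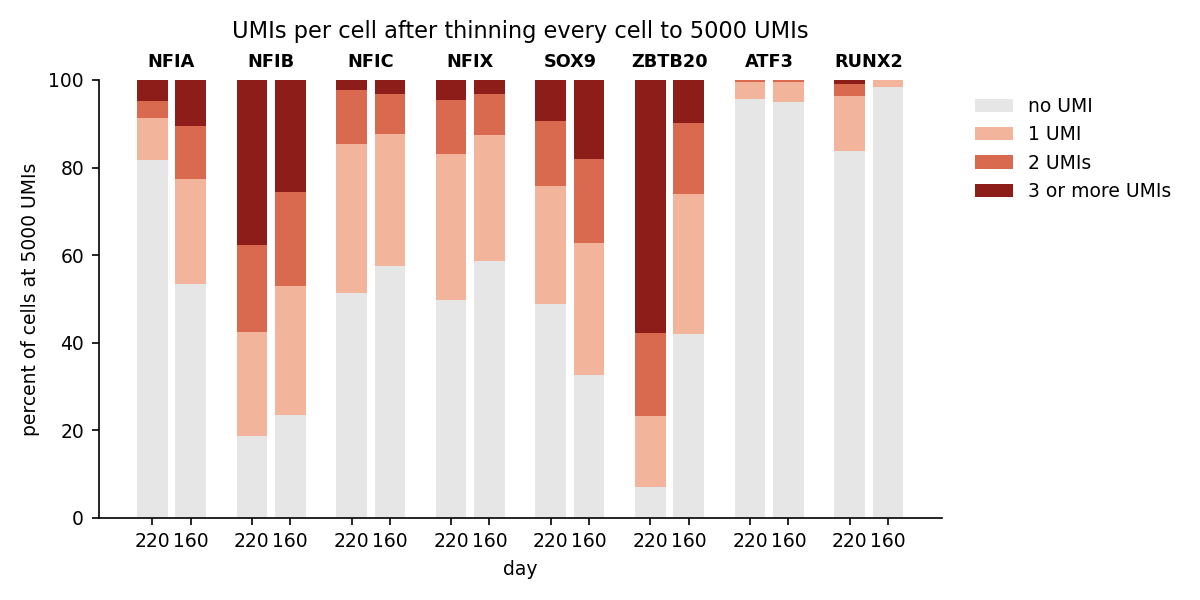
Percent of cells with no, 1, 2 or at least 3 UMIs of each gene after every cell was thinned to 5000 UMIs, with day 220 (488 cells) left of day 160 (8699 cells) in each pair. Cells without an NFIA UMI make up 81.8% at day 220 and 53.4% at day 160, while cells with 3 or more ZBTB20 UMIs make up 57.8% at day 220 and 9.90% at day 160.

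NFIB, NFIC and NFIX, which share the DNA-binding domain of NFIA, differed little in CPM between the days. NFIB had 418 CPM at day 220 and 318 CPM at day 160 (1.31-fold higher, 1.29 to 1.34). NFIC had 137 CPM at day 220 and 124 CPM at day 160 (1.11-fold), and NFIX had 142 CPM at day 220 and 122 CPM at day 160 (1.16-fold). These small differences changed sign when the libraries were scaled by the median of ratios instead of total counts, to a log2 ratio of -0.054 for NFIB, -0.30 for NFIC and -0.23 for NFIX. That scaling moved the median of all genes from 0.14 to -0.33, so no direction in CPM is given for the 3 genes. Against genes of like intron length they were lower at day 220. The log2 ratio was then -1.62 for NFIB, -1.01 for NFIC and -0.53 for NFIX. Single cells commonly held several family members at once. At 5000 UMIs, 41.0% of day 220 cells had UMIs of exactly 2 of the 4 NFI genes and 5.12% had all 4, against 35.4% and 7.77% of day 160 cells. Cells with none made up 3.69% at day 220 and 5.001% at day 160. Stretches of 31 bases shared between annotated transcripts of the 4 genes were limited to 50 between NFIC and NFIX, 0.772% of those of NFIX, so few reads could match more than 1 of the annotated family members.

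SOX9, which specifies glia and cartilage in different tissues, had 173 CPM at day 220 and 252 CPM at day 160, or 1.46-fold lower at day 220. Thinned to 5000 UMIs, 51.2% of day 220 cells (46.7 to 55.7) and 67.3% of day 160 cells (66.3 to 68.3) had a SOX9 UMI, and without thinning 90.0% and 84.8% had. In the 26 cells of day 160 cluster 13, led by SSTR2 and EOMES and holding the neuronal genes NEUROD2 and STMN2, where SOX9 is not expected, the thinned share was 15% (3.21 to 37.9), from 3 of 20 cells. The median depth of that cluster was 6560.5 UMIs. The day 160 share lay above that background, and no such cluster was measured in the day 220 library. For the other genes no cell type known to lack them was present, and the part of free RNA in their shares was not measured. The antisense transcript SOX9-AS1, which covers the whole gene on the other strand, had 21.8 CPM at day 220 and 9.99 CPM at day 160 (2.18-fold higher). Against genes of like intron length it was not higher, with a centred log2 ratio of -0.39.

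ZBTB20 lies on the minus strand of chromosome 3 from 114314501 to 115147271, with 800899 intronic bases. Its level was 700.2 CPM at day 220 (690 to 711) and 202 CPM at day 160 (199 to 204), a 3.47-fold higher level at day 220 (3.41 to 3.54). Nearly every day 220 cell carried it: at 5000 UMIs 93.0% of cells had a UMI at day 220 (90.4 to 95.1) and 57.9% at day 160 (56.9 to 59.0). Without thinning the shares were 95.9% at day 220 and 76.8% at day 160. Of the antisense genes annotated inside its span, ZBTB20-AS5 and ZBTB20-AS1 were seen almost only at day 220. ZBTB20-AS5 had 437 UMIs (17.1 CPM) at day 220 and 1 UMI at day 160, and ZBTB20-AS1 had 109 UMIs (4.28 CPM) at day 220 and 9 UMIs (0.0782 CPM) at day 160. ZBTB20-AS2 stood at 1.49 CPM at day 220 and 0.842 CPM at day 160. Against genes of like intron length, the log2 ratios of ZBTB20-AS5, ZBTB20-AS1 and ZBTB20-AS2 were 3.57, 2.20 and 0.82. No source used here says whether counting used strand. Whether reads of ZBTB20 and of these genes were counted apart where they overlap was thus not established.

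RUNX2, on the plus strand of chromosome 6 from 45328157 to 45664349, stood at 43.3 CPM in the day 220 library (40.8 to 45.9) and at 5.46 CPM in the day 160 library (5.04 to 5.91). This was 7.92-fold higher at day 220 (7.18 to 8.75), the largest ratio of the 8 genes. At equal depth 16.2% of day 220 cells (13.0 to 19.8) and 1.51% of day 160 cells (1.26 to 1.78) had a RUNX2 UMI, and without thinning 54.4% and 4.67% had. Most cells that had any therefore had 1 UMI at that depth, 12.5% of all cells at day 220 and 1.46% at day 160. SUPT3H encodes a transcription coactivator subunit and overlaps RUNX2 over 49797 bases on the opposite strand. It had 92.6 CPM at day 220 and 12.3 CPM at day 160 (7.54-fold higher). Against genes of like intron length its centred log2 ratio was 0.30. The use of strand in counting is not stated. Whether reads of SUPT3H and RUNX2 were counted apart where they overlap was thus not established.

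ATF3, the stress-induced factor, was sparse in both libraries. It had 245 UMIs (9.61 CPM) at day 220 and 1475 UMIs (12.8 CPM) at day 160, 1.33-fold lower at day 220 (1.16 to 1.53). The thinned shares of cells were 4.30% at day 220 (2.68 to 6.50) and 5.08% at day 160 (4.63 to 5.56), and these intervals overlapped. Unthinned shares were 23.0% at day 220 and 12.04% at day 160. At 10000 UMIs per cell the shares were 7.14% of 476 day 220 cells and 12.8% of 4713 day 160 cells, so the thinned share was lower at day 220 at both depths, and only cells deep enough entered. A difference in the share was not detectable at 5000 UMIs.

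The ratio between the libraries followed intron length across all genes. Day 220 values of genes with long introns were higher as a class: the median log2 ratio of the 500 counted genes nearest in intron length was 2.59 for ZBTB20, 2.51 for NFIA, 2.10 for RUNX2, 2.01 for NFIB, 1.16 for NFIC, 0.74 for NFIX and 0.29 for ATF3. For SOX9, with 1466 intronic bases, it was -0.43. No source used here says whether reads in introns were counted, and the part of such reads in the ratios was not tested.

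Set against genes of like intron length, the order of the 8 genes changed. NFIA, with a log2 ratio of -1.05, had a centred log2 ratio, the difference from that median, of -3.56. ZBTB20, with a log2 ratio of 1.79, had a centred ratio of -0.80, so its ratio was below the median of genes of like intron length. RUNX2, with a log2 ratio of 2.78, had a centred ratio of 0.68. The centred log2 ratios of the others were -1.62 for NFIB, -1.01 for NFIC, -0.67 for ATF3, -0.53 for NFIX and -0.11 for SOX9. On this centred scale 0 of the 8 genes were at least 2-fold higher, beside 10.5% of the 10139 genes with an intron length, and 3 were at least 2-fold lower (NFIA, NFIB and NFIC), beside 7.27% of genes. NFIA was the only gene of the 8 past 2-fold in the same direction on both scales.

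**Figure D3:**
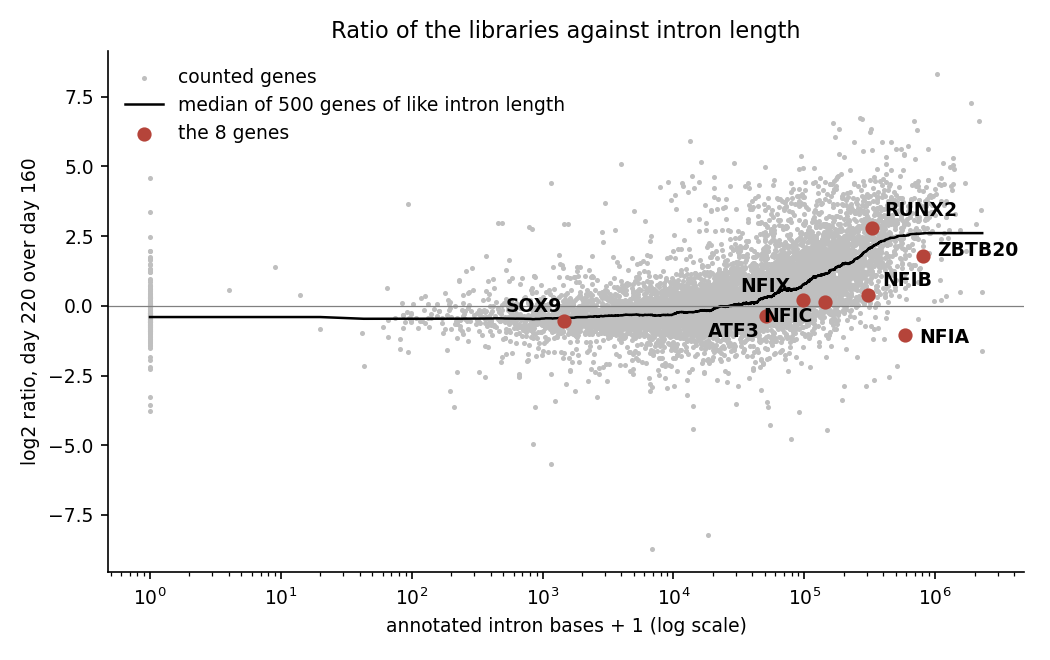
Log2 ratio of day 220 over day 160 for each counted gene (grey) against its annotated intron bases (log axis), with the median of the 500 genes nearest in intron length as a line and the 8 genes in red. NFIA at -1.05 lies far under the line, which passes 2.51 at its intron length, while RUNX2 lies above it and ZBTB20 below it.

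Across clusters each gene had its own pattern, and several patterns recurred in both libraries. Clustering was run on each library alone with the 8 genes left out of the variable genes, and gave 7 clusters at day 220 and 13 at day 160. Clusters are called by their leading genes or by a class. A class needed at least 3 of its fixed markers among the top 50 genes, and more than any other class. Day 160 clusters 1 (led by CALB2 and SCGN), 3, 10 and 13 each had 3 neuronal precursor and 3 neuron markers, and so were not named. Day 220 cluster 1 (158 cells) and day 160 cluster 2 (1271 cells) were astrocyte-like. Genes of HLA class II were also among the leading genes of both, with SPARCL1, EDNRB, HLA-DPA1 and HLA-DRA leading at day 220 and HLA-DPA1, HLA-DPB1, HLA-DRB1 and CD74 at day 160.

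NFIA was lowest in the cluster led by COL1A1 in both libraries. That cluster, with TAGLN and ACTA2 among its top genes and so mesenchymal-like by the fixed markers, held 47 cells at day 220 and 80 cells at day 160. The mesenchymal genes COL3A1, DCN and LUM stood at or below 0.08 CPM in both whole libraries. NFIA stood at 22.4 CPM (18.1 to 27.4) in the COL1A1 cluster of day 220, 0.241 times the level of the other day 220 cells. It stood at 14.5 CPM (10.7 to 19.0) in that of day 160, 0.0830 times the level of the other day 160 cells. NFIA was highest at day 160 in the HOPX cluster 6, whose leading genes include an outer radial glia marker, at 311 CPM, and in cluster 9 (RAMP1, GPC3) at 269 CPM. At day 220 the highest level was 165 CPM in cluster 7, where only 16.7% of thinned cells had an NFIA UMI.

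RUNX2 was highest where NFIA was lowest, though the pair did not run opposite elsewhere (both were low in the day 220 CALB2 and SCGN cluster). The COL1A1 cluster held the highest RUNX2 level of each library, 86.2 CPM in the day 220 library (77.5 to 95.6) and 28.6 CPM in the day 160 library (23.3 to 34.8). These levels were 2.47 times those of the other cells at day 220 and 6.03 times those of the other cells at day 160. The COL1A1 cluster was also the deepest of each library, with a median of 83008 UMIs per cell at day 220 and 34211 at day 160. Clusters led by CALB2 and SCGN, genes of interneuron lineages, were low, with 3 RUNX2 UMIs (6.96 CPM) in 24 cells at day 220 and 7 UMIs (0.722 CPM) in 1515 cells at day 160. The same CALB2 and SCGN clusters had the highest NFIB level of each library, 1383 CPM at day 220 and 557 CPM at day 160, against 418 CPM in all day 220 cells and 318 CPM in all day 160 cells.

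NFIC was highest in clusters with genes of DNA synthesis or division in both libraries. Its highest level was 206 CPM (185 to 228) in the day 220 cycling cluster 5, led by TOP2A and UBE2C, and 214 CPM (206 to 223) in day 160 cluster 5, led by the DNA synthesis genes PCLAF and TYMS. The day 160 cluster 5 had only 2 cycling markers among its top genes and so was not named cycling-like. Cluster 11, also led by TYMS, followed at 202 CPM, and the main cycling-like cluster 7, led by CDC20 and CCNB1, stood lower at 142 CPM. Over all cycling-like cells, NFIC was 1.56 times the level of the other cells at day 220 and 1.28 times at day 160. ATF3 was highest in glial clusters, with 14.2 CPM in the astrocyte-like cluster of day 220 and, at day 160, 20.6 CPM in the HOPX cluster and 19.9 CPM in the astrocyte-like cluster among clusters of at least 50 cells. Other clusters came close, with ATF3 at 17.6 CPM (13.5 to 22.6) in the COL1A1 cluster of day 160. The cycling cluster of day 220 had 12.7 CPM (7.97 to 19.2), while the COL1A1 cluster of day 220 had 5.30 CPM. ATF3 was lower, at 3 UMIs (3.07 CPM), in the neuronal precursor-like cluster 7 of day 220 and at 3.69 CPM in the neuronal precursor-like cluster 8 of day 160.

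SOX9 and ZBTB20 were present in every cluster of at least 50 cells. For SOX9 the highest such cluster at day 220 was the OLIG1 cluster 3 with 290 CPM, 1.88 times the lowest, and at day 160 it was the CALB2 and SCGN cluster 1 with 388 CPM, 2.91 times the lowest. SOX9 was thus not confined to glial clusters. ZBTB20 ranged from 586 to 1036 CPM among these clusters at day 220 and from 123 to 270 CPM at day 160. With smaller clusters included, the ranges of the days overlapped. ZBTB20 had 481 CPM in cluster 4 and 350 CPM in cluster 6 of day 220, and 526 CPM in cluster 13 of day 160. These levels are not centred on intron length. Among the same clusters, NFIX was highest in the OLIG1 cluster 3 at day 220 (188 CPM) and in cluster 4, led by LOX and FAM181B, at day 160 (164 CPM).

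**Figure D4:**
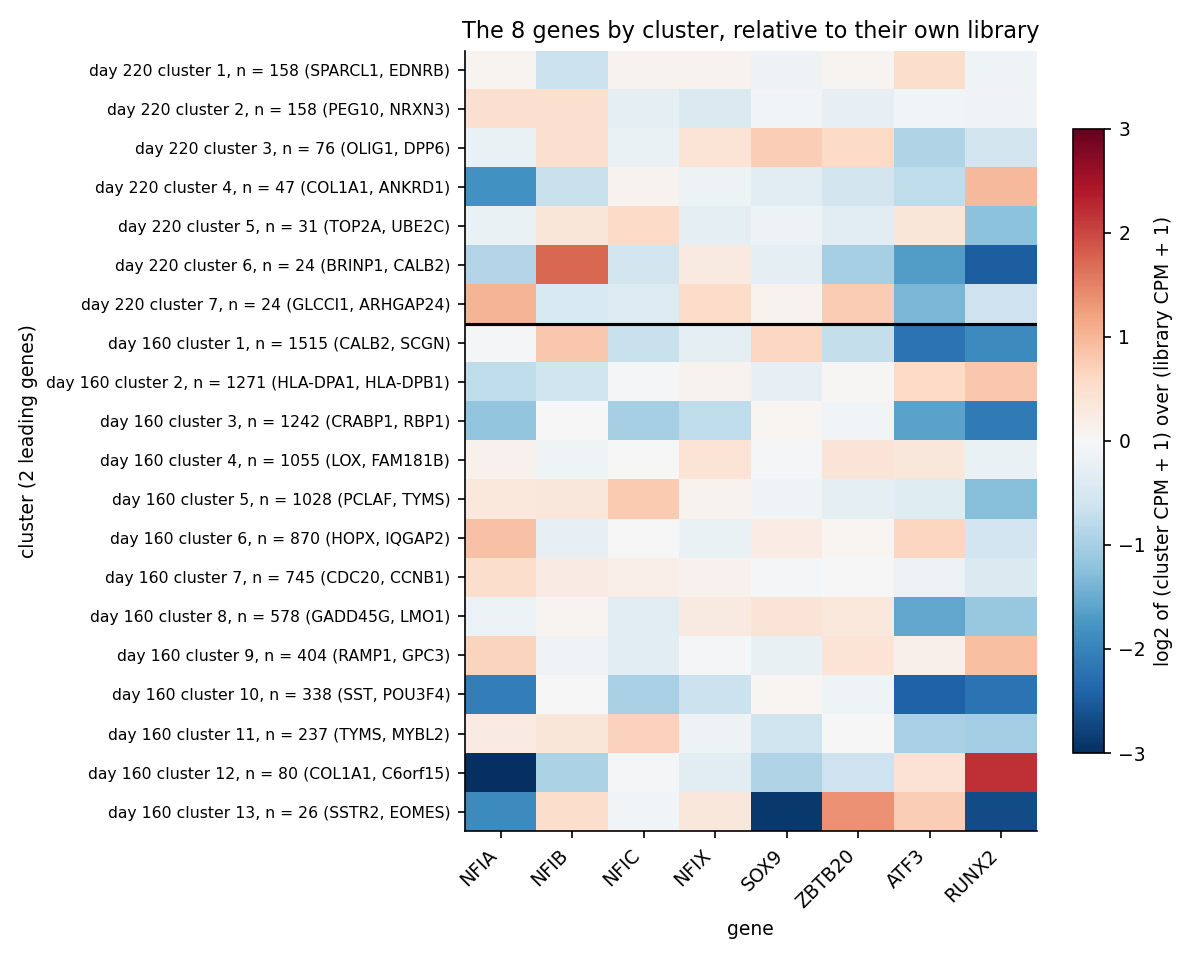
Level of each gene in each cluster, as log2 of (cluster CPM + 1) over (CPM + 1 of the same library), for the 7 clusters of day 220 above the line and the 13 of day 160 below it, each row giving the number of cells and 2 leading genes. The COL1A1 rows of both days are blue for NFIA and red for RUNX2, and the CALB2 rows of both days are red for NFIB.

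No gene of the set was at least 2-fold higher in the astrocyte-like cells of both libraries. Among day 220 astrocyte-like cells, 0 of the 8 genes were at least 2-fold higher than in the other cells, beside 3.15% of 10061 genes counted. Among those of day 160, 1 of the 8 was, beside 3.58% of 9024 genes counted. That gene was RUNX2, at 10.4 CPM in astrocyte-like cells and 3.97 CPM in the other cells, 2.62-fold higher (2.23 to 3.07). At Leiden resolution 1.0, where 2260 cells of day 160 were astrocyte-like, 0 of the 8 genes passed. ATF3 leaned the same way in both libraries, at 14.2 CPM in astrocyte-like and 7.06 CPM in other cells of day 220, and at 19.9 CPM in astrocyte-like and 10.6 CPM in other cells of day 160. Without the pseudocount ATF3 was 2.01 times the other cells at day 220 (1.56 to 2.61) and 1.87 times at day 160 (1.68 to 2.08). The count of 0 genes at day 220 thus rests on the pseudocount. The HOPX cluster 6 of day 160, counted here among the other cells, also had 4 astrocyte markers among its top genes, as many as the astrocyte-like cluster, and was not named because it had 4 radial glia markers too. NFIA, highest in that cluster, stood at 86.5 CPM in astrocyte-like and 78.6 CPM in other cells of day 220, and at 98.8 CPM in astrocyte-like and 191 CPM in other cells of day 160.

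The size of the NFIA difference in CPM varied between classes of cell, while centred on intron length NFIA was more than 2-fold lower at day 220 in all 4 classes compared. In astrocyte-like cells it was 86.5 CPM at day 220 and 98.8 CPM at day 160, only 1.14-fold lower at day 220 (1.05 to 1.24). In cycling-like cells (31 at day 220 and 982 at day 160) it was 70.5 CPM at day 220 and 235 CPM at day 160, 3.33-fold lower (2.78 to 4.03). In the CALB2 and SCGN clusters it was 44.1 CPM at day 220, from 19 UMIs, and 162 CPM at day 160, 3.68-fold lower (2.35 to 6.12). In the COL1A1 clusters NFIA was 1.55-fold higher at day 220 (1.09 to 2.23), at a low level in both libraries. The centred log2 ratios were -2.63 in astrocyte-like, -1.75 in COL1A1, -4.34 in cycling-like and -4.68 in CALB2 and SCGN cells. The intervals of the astrocyte-like and cycling-like ratios did not overlap, on counting error alone.

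ZBTB20 and RUNX2, in contrast, were higher in CPM at day 220 in every class compared, though not once centred on intron length. ZBTB20 was 3.60-fold higher in astrocyte-like, 3.68-fold in COL1A1, 2.73-fold in cycling-like and 2.84-fold in CALB2 and SCGN cells. RUNX2 was 3.78-fold higher in astrocyte-like cells (3.23 to 4.44), 3.01-fold in COL1A1 cells (2.41 to 3.80) and 5.12-fold in cycling-like cells (3.18 to 8.12). In CALB2 and SCGN cells it was 9.64-fold (1.61 to 42.2), from 3 UMIs at day 220 and 7 UMIs at day 160. The makeup of all cells, with 7.92-fold, differed between the libraries. Centred on intron length, the log2 ratios over the 4 classes lay between -1.39 and -0.50 for ZBTB20 and between -0.33 and -0.027 for RUNX2. In astrocyte-like cells, the 2 genes past 2-fold were thus again 2 of 8, beside 22.5% of 9813 genes counted, and 0 of 8 were lower, beside 4.48%. Centred on intron length, 0 of 8 were higher, beside 10.1% of 9788 genes, and 2 of 8 were lower (NFIA at -2.63 and NFIB at -1.56 on the centred log2 scale), beside 6.8%.

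Smaller groups differed in other members. NFIB was 2.48-fold higher (2.28 to 2.70) and SOX9 2.74-fold lower (2.13 to 3.59) at day 220 in the CALB2 and SCGN cells, from 596 NFIB and 61 SOX9 UMIs at day 220. The centred log2 ratio there was -0.85 for NFIB and -0.83 for SOX9. ATF3 was 3.33-fold lower (2.01 to 5.69) at day 220 in the COL1A1 cells, from 22 UMIs at day 220 and 61 UMIs at day 160. SOX9 in the same cells was 139 CPM at day 220 and 133 CPM at day 160, with an interval of the ratio from 0.919 to 1.18.

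**Figure D5:**
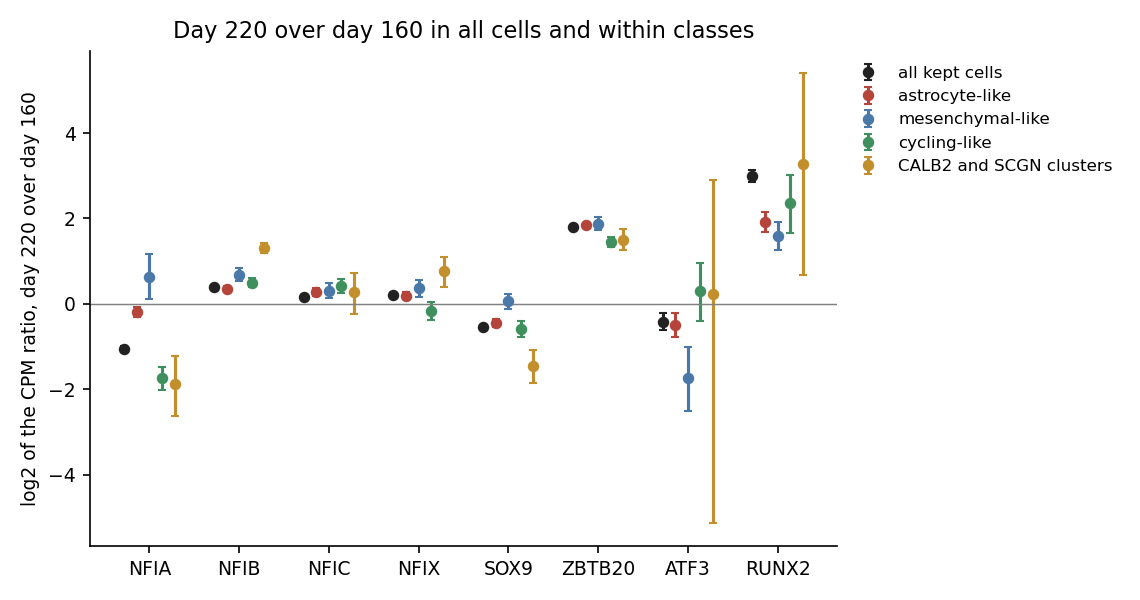
Log2 of the CPM ratio of day 220 over day 160 for each gene, in all kept cells and within 4 classes, with 95% exact intervals that cover counting error only. ZBTB20 and RUNX2 lie above 0 in every class on this scale, which is not centred on intron length, while NFIA lies near 0 in astrocyte-like cells and below -1 in cycling-like and in CALB2 and SCGN cells; mesenchymal-like marks the COL1A1 clusters.

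Genes that work with these factors were examined from lists written from general knowledge. Of 6 counted genes linked to NFI and SOX9 in glia, 0 were at least 2-fold higher at day 220, beside 23.0% of all genes, and 2 were lower, beside 5.09%, with a median log2 ratio of -0.47 beside 0.14 over all genes. GFAP, the astrocyte intermediate filament, had 135 CPM at day 220 and 551 CPM at day 160 (log2 ratio -2.02). EZH2, a histone methyltransferase of progenitors, had 33.7 CPM at day 220 and 72.6 CPM at day 160 (log2 ratio -1.08). The log2 ratio was -0.82 for APCDD1, a gene induced by NFIA in chick spinal cord, and 0.24 for ZCCHC24. Cells with and without NFIA were not separated for these genes. The list gives no direction for each link, so its counts and median are no measure of NFI or SOX9 activity.

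Among 13 counted genes of other glial transcription factors, 3 were at least 2-fold higher at day 220, beside 23.0% of all genes, 3 were lower, beside 5.09%, and the median was 0.05. Centred on intron length 1 was higher, beside 10.5% of genes, and 2 were lower, beside 7.27%. OLIG1, of the oligodendrocyte lineage, had 184 CPM at day 220 and 6.72 CPM at day 160 (log2 ratio 4.58), and led the day 220 cluster in which NFIX and SOX9 were high. Log2 ratios were 3.06 for GLIS3, with 0.58 once centred on intron length, -3.07 for the Notch target HES5 and -1.55 for the BMP target ID3. Neurogenic factors were mostly lower: of 10 counted, 6 were lower by 2-fold or more (5.09% of all genes) and 1 was higher (23.0% of all genes), and the median was -1.10. Centred on intron length 3 were lower, beside 7.27% of genes, and 0 higher, beside 10.5%. They included DLX2, a factor of interneuron precursors, with 153 CPM at day 220 and 553 CPM at day 160, and FEZF2 with a log2 ratio of -1.74.

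RUNX1, a paralog of RUNX2 that binds the same motif, was higher as well. It had 212 CPM at day 220 and 14.9 CPM at day 160, 14.2-fold higher, and lay 1.14 above genes of like intron length on the log2 scale. CBFB, the shared partner subunit of RUNX proteins, had 42.1 CPM at day 220 and 21.0 CPM at day 160 (log2 ratio 0.97). Genes of bone cells were mixed. SPP1, which many cell types also make, had 108 CPM at day 220 and 70.7 CPM at day 160, and BGLAP had 10.6 CPM at day 220 and 14.9 CPM at day 160. IBSP and MMP13 had 0 UMIs in both libraries, which allows up to 0.118 CPM at day 220 and 0.0261 CPM at day 160, and RUNX3 was likewise at 0 UMIs. DLX5, which acts in bone and in interneurons, had a log2 ratio of -0.98. Of the 7 counted genes on this list, 2 were at least 2-fold higher, RUNX1 among them, beside 23.0% of all genes, and 0 were lower, beside 5.09%, and the median log2 ratio was 0.82.

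SOX9 acts in cartilage with SOX5 and SOX6, and these differed from it. SOX5 had 585 CPM at day 220 and 35.4 CPM at day 160 (log2 ratio 4.01, centred 1.41), and SOX6 had 626 CPM at day 220 and 67.8 CPM at day 160 (log2 ratio 3.19, centred 0.60). COL11A1 had a log2 ratio of 1.67, centred 0.13. These were the 3 counted genes of 10 on that list, and all 3 were at least 2-fold higher, beside 23.0% of all genes. Centred on intron length 1 was (SOX5), beside 10.5% of genes.

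For ATF3 the neighbouring pathways were read from stress and immediate early genes. Of 9 counted amino acid and ER stress genes, 0 were at least 2-fold higher or lower, beside 23.0% and 5.09% of all genes. Their median was -0.11, the farthest genes being DDIT4 at -0.77, SESN2 at 0.64, DDIT3 at 0.58 and VLDLR at 0.53. Of 8 counted immediate early genes, 3 were at least 2-fold lower at day 220 and 0 higher, beside 5.09% and 23.0% of all genes, and their median was -0.87. Centred on intron length 1 was lower (IER2), beside 7.27% of genes. IER2 had 96.2 CPM at day 220 and 351 CPM at day 160. Log2 ratios were -1.15 for KLF6, -1.14 for FOS and -0.92 for JUNB. These genes respond to handling as well as to signals, and their part in the ATF3 level was not tested.

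The genes most like each factor in pattern were ranked by Pearson correlation of log2(CPM + 1) over the 15 clusters of at least 50 cells, 3 of day 220 and 12 of day 160, each library centred on its own mean, among 8056 genes. Clusters of a library share its normalisation but differ in depth, with medians from 5795 to 34211 UMIs per cell at day 160. With so many genes and few points high values are common, so these are descriptions. ATF3 was most like EMP3 (0.97), MGST1 and IL13RA1, and RUNX2 most like the matrix gene TNC (0.97), B4GALT7 and GALNT2. NFIC was most like ANKRD9 (0.96), the DNA polymerase subunit POLD2 and HADH, and NFIB most like TMSB15A (0.92), ELF2 and DMTF1. NFIX was most like the neural factor POU3F2 (0.90), SPECC1 and PITPNA-AS1. NFIA was most like PRPF38A (0.89), WDR61 and TBC1D15, SOX9 most like DNAJC18 (0.88), NEMF and NDUFAF7, and ZBTB20 most like ELAC1 (0.89), MTHFD2L and SSB. Among the 8 genes themselves, the highest correlation over these clusters was 0.79, between ATF3 and RUNX2. The lowest were -0.68 between NFIB and RUNX2, -0.64 between SOX9 and RUNX2 and -0.63 between NFIB and ATF3.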

How the data were processed

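For each library the authors deposited unnormalised UMI counts, by gene and by cell barcode; the file headers name cellranger 7.0.1 as the counting software. The submitters' processing notes list hg38, Seurat 4 and Cell Ranger 7. No source used here gives strand, intron counting, annotation release or cell calling settings.

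Barcodes with at least 1000 genes and at most 15% mitochondrially encoded UMIs passed, which left 524 of 676 at day 220 and 9972 of 13018 at day 160. Scrublet in scanpy 1.11.5 (expected rate 0.06) removed 6 doublets at day 220 and 583 at day 160. Cells were normalised to 10000 UMIs, and 2000 variable genes without the 8 members, 30 principal components, 15 neighbours and Leiden resolution 0.5 gave the clusters. The search among the top 50 genes for cluster names was chosen after the data were seen.

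Counts were summed over cells and scaled to CPM, and ratios used a pseudocount of 1 CPM. Intervals were exact Poisson for CPM, exact conditional binomial for ratios without the pseudocount, and exact Clopper-Pearson for shares. A count of 0 was given a limit of 3 UMIs per library. Shares were compared after each cell was thinned to 5000 UMIs, which left out 30 cells at day 220 and 690 at day 160. Intron lengths and coordinates came from GENCODE release 29 on GRCh38, matched by gene identifier. Libraries were grouped by the time point in the labels.

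All 8 members were named, with overlapping genes of at least 1 CPM, the 4 genes of largest log2 ratio in each list and the 3 genes most like each member in pattern. Some further genes of those lists (IBSP, MMP13, RUNX3, SPP1 and BGLAP) were named after their values were seen. Some genes that this rule picks are not reported here. The members and lists were chosen with earlier results of these data known. The ratio and interval computations were tested on simulated data. Alternatives changed the scaling, pseudocount, filters, thinning depth, clustering and intron correction.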

Additional observations from a re-analysis of the deposited data

How the results depend on the processing

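At day 220, 2 of the 8 genes were higher by 2-fold or more and 1 was lower, and these counts were unchanged with a pseudocount of 0.1 CPM, without mitochondrial and ribosomal protein genes, with median of ratios scaling, thinning to 5000 UMIs, means of per-cell CPM, doublets kept, a mitochondrial limit of 10% and no filter on expression. Centred on intron length 0 were higher and 3 lower; with a limit of 50 CPM, 1 was higher, since RUNX2 falls under that filter. The median log2 ratio of 0.18 became 0.078 without mitochondrial and ribosomal protein genes and 0.075 at a mitochondrial limit of 10%. It was -0.26 with median of ratios scaling and -0.74 centred on intron length. Over all genes counted, the medians in these settings were 0.049, 0.10, -0.33 and 0.0079, in the same order. NFIB turned to -0.054 with median of ratios scaling and -1.62 when centred, NFIC to -0.30 and -1.01, and NFIX to -0.23 and -0.53, while ZBTB20 turned to -0.80 when centred. NFIA stayed between -3.56 and -1.05, SOX9 between -0.99 and -0.11, ATF3 between -0.79 and -0.10 and RUNX2 between 0.68 and 3.38 under these 8 alternatives. For the centred values the cause was not tested. The share of cells with a UMI was higher at day 220 for 5 of 8 genes at 5000, 2000 and 10000 UMIs. The count was the same with doublets kept, and 7 without thinning. The same count was not made over all genes, so it is not read as a trait of the 8 genes. At day 160, 1 gene was at least 2-fold higher in astrocyte-like than in other cells, against 0 at Leiden resolution 1.0 (2260 astrocyte-like cells) and 0 with the 8 genes allowed in the clustering (741 cells), so the RUNX2 call there depends on cluster borders. With the 8 genes allowed, no day 220 cluster was named astrocyte-like, so no value could be had for that day or between the days. Within astrocyte-like cells the count higher at day 220 was 2, and 0 centred on intron length. No paired analysis was possible because each day has 1 library. With 518 cells, day 220 limits the depth, and clusters of 24 to 47 cells rest on few UMIs of ATF3 and RUNX2.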
